A study of Mus musculus with 2 samples.

Results

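The insulin-like growth factor (IGF) genes of cultured mouse tumour pericytes were examined in RNA-seq libraries from Cd248 null and Cd248 heterozygous cells. Membership follows from the gene names, and the family was picked for study with earlier results of these data known. It holds 10 genes, namely the ligands Igf1 and Igf2, the receptors Igf1r and Igf2r, and the binding proteins Igfbp2 to Igfbp7. All 10 were found by Ensembl ID among the 52636 gene IDs of the deposited table, and 9 of them had an FPKM of 1 or more in either library. FPKM scales fragment counts to transcript length and library total, so that levels of different genes can be set side by side within a library.

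IGF1 and IGF2 are secreted growth factors that signal through the tyrosine kinase receptor IGF1R, mainly along the PI3K-Akt and MAPK routes. IGF2R, which is also the cation-independent mannose 6-phosphate receptor, takes up IGF2 for breakdown in lysosomes and does not relay a growth signal of the IGF1R kind. The binding proteins hold the ligands outside the cell, and proteases that cut them release the ligands again. Stromal cells are a known source of IGFs and of binding proteins in tissues and tumours.

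Pericytes are contractile cells on the outside of capillaries. There was 1 library from Cd248 null cells, whose genotype label reads knockout, and 1 from Cd248 heterozygous cells, both from primary tumour pericytes of the C57BL/6 strain, sorted by flow cytometry and cultured on gelatin to passages 10 to 12. Cd248 (endosialin) encodes a transmembrane lectin of pericytes and stromal fibroblasts, and both groups carry at least 1 altered allele, so no wild-type cells enter the comparison. The sources used here do not give the sorting markers, the tumour model, the deleted part of Cd248 or whether animals were pooled. With 1 library a genotype there is no replicate check on any difference, and no p-value can be given.

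Some facts of the whole libraries bear on every value. The data columns carry code names ending in N and P, read as null and heterozygote, and the Cd248 FPKM was 0.0592 in the first and 20.98 in the second. Every direction given rests on that reading. Among 12773 genes compared, the median log2 ratio of null to heterozygote was 0.03. Of 10 pericyte markers 6 reached an FPKM of 1. With a pseudocount of 1 added to each FPKM, 0 were at least 2-fold lower in null cells, 1 higher and 5 within 2-fold. Notch3 stood at 2.199 in null cells and 0.689 in heterozygous cells, and Des at 1.077 and 0.188. Their plain FPKM was more than 2-fold higher in null cells, and the pseudocount brought their log2 ratios to 0.92 and 0.81. Pdgfrb stood at 57.3 in null cells and 8.25 in heterozygous cells, Acta2 at 726 and 1367, Mcam at 8.68 and 11.2 and Cspg4 at 2.59 and 5.02, while Rgs5, Kcnj8, Abcc9 and Anpep stayed below 1 in both. Of 9 mesothelial and epithelial markers, the 6 that reached an FPKM of 1 were all lower in null cells by at least 2-fold. These were Upk3b (0.430 and 330), Msln (2.10 and 234), Krt19 (14.4 and 217), Krt18 (0.0361 and 196), Upk1b (0.314 and 118) and Wt1 (0.160 and 55.4). Krt8 and Cdh1 stayed below 1 in both libraries, and Epcam was listed at 0 in both. The list summed to 17.5 in null cells against 1151. Of 6 fibroblast markers 5 were compared, with 1 higher and 3 lower in the null library. No endothelial marker of 5 reached an FPKM of 1. Of 5 myeloid markers, Cd68 (3.19 and 5.49) and Csf1r (2.10 and 0.195) did. Csf1r was at least 2-fold higher in null cells, and Cd68 was lower there but within 2-fold. The myeloid list summed to 5.29 and 5.74, with Adgre1 and Itgam listed at 0 in both libraries, and Ptprc at 0 and 0.0574. The libraries also differed in sex-linked genes, with Xist at 74.2 and 0.0133, and with 4 of 4 Y-linked genes listed at 0 in null cells and present in the other. Genotype, culture and sex of the source animal cannot be told apart in this design, and the part of the marker differences in the IGF values was not tested.

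Promoter sequences are shown for 5 members: Igf1, Igf2 and Igfbp4, the members that differed at least 2-fold, and Igf1r and Igfbp7, a near-equal member and the most abundant one. They come from RefSeq on GRCm38.p6 and run 5′ to 3′ on the gene's strand, from 250 bases before to 50 bases after the annotated start. Capitals mark the motifs searched, each on both strands. They were the TATA box in the form TATAAA, the CCAAT box, the GC box in the form GGGCGG, the FoxO core TGTTTAC, the TCF/LEF core CTTTGA and the hypoxia response core ACGTG. The deposited FPKM values carry no coordinates, so they do not show which start was used.
Igf1, chr10:87860861-87861160, plus strand: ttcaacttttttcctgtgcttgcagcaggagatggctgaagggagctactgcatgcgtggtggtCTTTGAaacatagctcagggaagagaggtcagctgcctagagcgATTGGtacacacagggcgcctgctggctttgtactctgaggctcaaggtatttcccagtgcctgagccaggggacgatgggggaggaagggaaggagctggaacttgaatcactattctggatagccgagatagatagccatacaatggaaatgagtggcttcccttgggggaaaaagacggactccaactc
Igf2, chr7:142657447-142657746, minus strand, one of 4 starts in RefSeq: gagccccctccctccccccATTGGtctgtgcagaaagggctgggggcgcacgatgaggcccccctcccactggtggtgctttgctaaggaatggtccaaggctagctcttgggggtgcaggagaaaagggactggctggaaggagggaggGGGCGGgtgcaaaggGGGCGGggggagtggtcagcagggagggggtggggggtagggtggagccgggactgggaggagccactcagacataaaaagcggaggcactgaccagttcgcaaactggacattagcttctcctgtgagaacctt
Igfbp4, chr11:99040994-99041293, plus strand: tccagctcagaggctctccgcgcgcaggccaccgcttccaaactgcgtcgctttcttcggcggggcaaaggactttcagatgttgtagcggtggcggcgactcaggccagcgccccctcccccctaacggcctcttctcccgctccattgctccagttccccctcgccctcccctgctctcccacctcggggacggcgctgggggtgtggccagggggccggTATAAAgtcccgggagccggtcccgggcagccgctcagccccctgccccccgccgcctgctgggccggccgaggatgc
Igf1r, chr7:67952007-67952306, plus strand: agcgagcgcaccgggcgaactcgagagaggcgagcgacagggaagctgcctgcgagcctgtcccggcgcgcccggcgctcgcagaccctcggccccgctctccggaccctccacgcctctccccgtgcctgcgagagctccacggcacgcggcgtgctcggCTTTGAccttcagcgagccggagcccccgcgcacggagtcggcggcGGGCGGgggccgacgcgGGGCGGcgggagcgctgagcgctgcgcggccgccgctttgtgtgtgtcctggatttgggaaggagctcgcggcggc
Igfbp7, chr5:77407996-77408295, minus strand: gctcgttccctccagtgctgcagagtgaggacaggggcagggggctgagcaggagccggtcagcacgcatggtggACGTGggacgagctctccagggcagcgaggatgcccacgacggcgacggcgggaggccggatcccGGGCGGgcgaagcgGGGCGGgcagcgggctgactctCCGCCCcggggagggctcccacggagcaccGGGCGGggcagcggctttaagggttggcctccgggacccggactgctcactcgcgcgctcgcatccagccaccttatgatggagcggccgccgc

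The higher members did not share a promoter type. Igf1 had 6 CpG dinucleotides in its window, against a median of 7 over all 32851 windows of this length, and the Igf2 window shown had 7, while those of the other Igf2 starts had 2, 14 and 24. Igfbp4 had 27, and carried a TATAAA at position -28 from the start, a motif present in 13.6% of all windows. Igf1r and Igfbp7 were richer in CpG, with 48 and 33. CTTTGA was found in the windows of Igf1, at position -186, and Igf1r, at position -89, and in 16.0% of all windows. It was also found, read on the other strand as TCAAAG, in the window of the most upstream Igf2 start, at position -207. GC boxes were found 4 times in the Igfbp7 window, 2 times each in those of Igf1r and of Igf2 as shown, and in 35.7% of all windows. CCAAT, read on the other strand as ATTGG, was found in the Igf1 window and the Igf2 window shown, and in 37.4% of all windows. ACGTG was found once in the Igfbp7 window and in 19.6% of all. TGTTTAC was in none of the windows of the 10 genes and in 3.65% of all windows. The hypoxia response core overlaps its own reverse within the palindrome CACGTG, which counts on both strands. Such matches describe the letters in these windows only.

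Both ligand genes were higher in the null library. Igf2, an imprinted fetal growth factor gene expressed from the paternal copy in most tissues, showed an FPKM of 41.2 in null cells against 0.104 in heterozygous cells. With a pseudocount of 1 its log2 ratio was 5.25, and 7 of the genes compared had a higher one. The heterozygote value stands for between 0.94 and 11.8 reads, depending on which of 9 annotated transcripts sets the length, so the gene was close to the counting limit there. The length the authors used was not determined here. For Igfbp3, Igfbp5 and Igfbp7, with 2 transcripts each, the midpoint of the reads on both lengths came close to whole numbers. Whether the mean length holds for genes with more transcripts was not tested. Taking the longest of several transcripts made 7.48% (null) and 7.65% (heterozygote) of low values whole reads. The longest was thus seldom the length used, and the reads given are not estimates. The null value stands for between 306 and 3846 reads. The ratio of the libraries had an exact 95% counting interval of 66.1-fold to 14697-fold on the shortest transcript and of 222-fold to 752-fold on the longest. Without molecular identifiers, reads do not count separate molecules, so these intervals cover no more than counting error, and they assume the same transcript in both libraries.

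Igf1, which encodes the growth hormone-responsive IGF that many stromal cells also make, showed an FPKM of 21.1 in null cells and 3.63 in heterozygous cells, a 5.81-fold difference. Its log2 ratio of 2.25 was exceeded by 125 genes. On the shortest annotated transcript the counting interval of the fold was 4.22 to 8.31. In the null library Igf2 made up 66.1% of the summed ligand FPKM and Igf1 33.9%. In the heterozygote library Igf1 made up 97.2%. The ligand with the higher level thus differed between the libraries, Igf2 in null cells and Igf1 in the heterozygote. The ligand sum was 62.2 and 3.73. In bulk libraries such as these, a different share of expressing cells and a different amount of RNA per cell cannot be told apart.

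**Figure D1:**
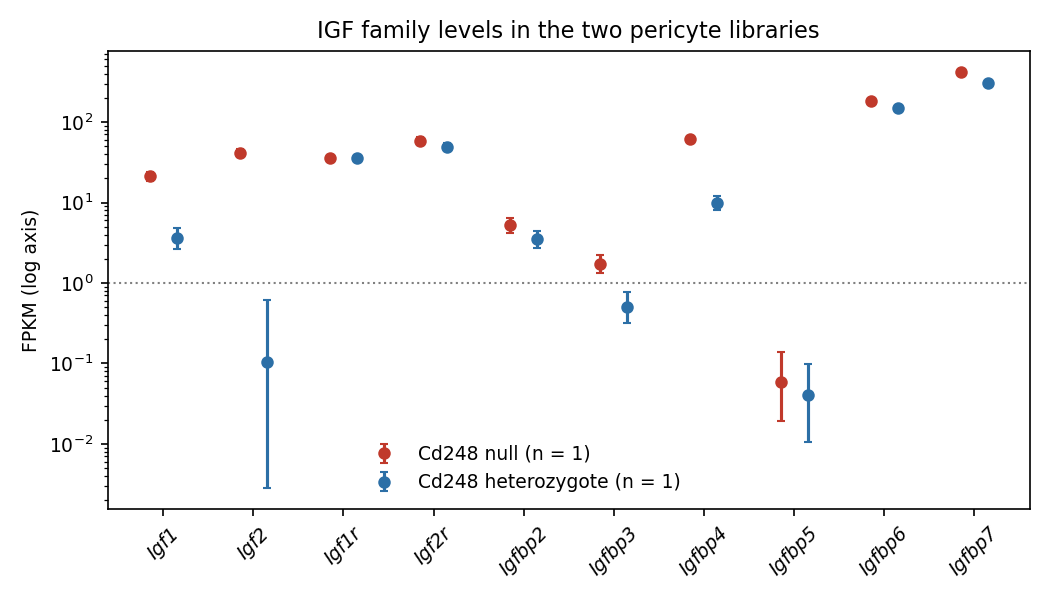
FPKM (log axis) of the 10 IGF family genes in the Cd248 null library (red) and the Cd248 heterozygote library (blue), 1 library each. Bars are exact 95% Poisson intervals computed on the shortest annotated transcript and cover counting error only, and the dotted line marks an FPKM of 1. The points lie far apart for Igf1, Igf2 and Igfbp4, and lie on each other for Igf1r.

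The receptor genes were nearly level. Igf1r, the signalling receptor, showed an FPKM of 35.8 in null cells and 35.7 in heterozygous cells. The counting interval of their ratio was 0.891 to 1.13 on the shortest transcript. Its log2 ratio was 0.003, which changed sign when the median of all genes compared was set to 0 (-0.02) or when it was centred on its chromosome (-0.04). Igf2r, the clearance receptor, stood at 58.2 and 48.7, a fold of 1.19 with an interval of 1.01 to 1.41. Igf2r was the more abundant receptor transcript in both libraries, at 1.63 times the Igf1r level in null cells and 1.36 times in heterozygous cells. Against this level receptor background, the ligand sum came to 174% of the Igf1r FPKM in null cells and 10.5% in heterozygous cells. These are ratios of RNA levels and do not measure protein.

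Of the 9 members compared, 3 were higher in null cells by at least 2-fold (33.3%) and 0 were lower, where 6.84% of all genes compared were higher and 6.88% lower. The members were Igf2, Igfbp4 and Igf1. All 9 log2 ratios were above 0, as were those of 6630 of the 12773 genes compared. The median of the members was 0.48 against 0.03 over all genes. That median was 0.25 after centring by chromosome and 0.29 with a pseudocount of 5, and Igf1r was below 0 in the settings named above. The other 6 lay between 0.003 and 0.86. Median log2 ratios differed between chromosomes. The median was 0.41 over 748 genes of chromosome 1, which holds Igfbp2 and Igfbp5, and -0.27 over 1074 genes of chromosome 11, which holds Igfbp3 and Igfbp4. It was 0.20 on chromosome 5 (Igfbp7), 0.15 on chromosome 15 (Igfbp6), -0.12 on chromosome 10 (Igf1) and 0.04 on chromosomes 7 (Igf2 and Igf1r) and 17 (Igf2r).

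**Figure D2:**
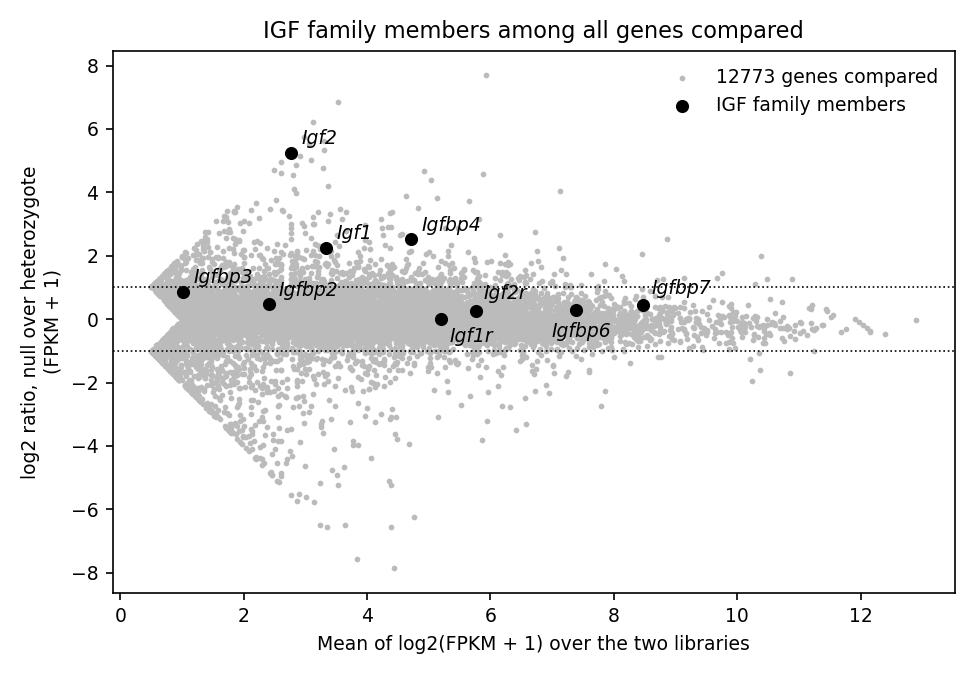
Log2 ratio of null to heterozygote FPKM, with a pseudocount of 1, against the mean log2 level for 12773 genes (grey) and the 9 IGF family genes compared (black). Dotted lines mark a 2-fold difference, and Igf2 (5.25), Igfbp4 (2.52) and Igf1 (2.25) lie above the upper one.

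Among the binding proteins Igfbp4 had the widest difference. It encodes a soluble binding protein that inhibits IGF action until it is cut by the protease PAPP-A. Its FPKM was 61.9 in null cells and 9.94 in heterozygous cells, a 6.23-fold difference with a counting interval of 5.05 to 7.71 on the shortest transcript, and 96 genes had a higher log2 ratio. The neighbouring protein-coding genes on chromosome 11 did not have a ratio in that direction. The topoisomerase gene Top2a stood at 195 and 242, and Tns4 at 0.588 and 5.49. Whether the Igfbp4 difference depends on its position was not tested.

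Igfbp7 and Igfbp6 were the most abundant members in both libraries. Igfbp7 encodes a matrix-associated protein that binds IGFs weakly and is known from vessel walls. It showed an FPKM of 415 in null cells and 303 in heterozygous cells, and 245 and 368 of the genes compared had a higher level. The fold of 1.37 had a counting interval of 1.33 to 1.41, so it exceeded counting error, and it lay within the 2-fold mark. The log2 ratio was 0.45, and 0.25 when centred on chromosome 5. Igfbp6, whose protein binds IGF2 in preference to IGF1, stood at 184 and 150.3. It has 1 annotated transcript, and its values correspond to 4058 and 4008 reads. The fold was 1.23, with an interval of 1.17 to 1.28, and the log2 ratio was 0.29, or 0.15 when centred on chromosome 15.

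The remaining binding proteins were low. Igfbp2, a carrier abundant in fetal tissues, stood at 5.25 in null cells and 3.47 in heterozygous cells, a fold of 1.51 with an interval of 1.10 to 2.06. Its log2 ratio was 0.48, and 0.07 when centred on the median of chromosome 1. Igfbp3, the main carrier of IGFs in serum, stood at 1.74 and 0.505, which stand for 58.8 and 20.7 reads on the shortest transcript. Its log2 ratio of 0.86 lay under the 2-fold mark with a pseudocount of 1. It passed that mark with a pseudocount of 0.1 (1.60) and when centred on the median of chromosome 11 (1.13). Without a pseudocount, the counting interval of the Igfbp3 fold was 2.04 to 5.90 on the shortest transcript. Igfbp5, often abundant in mesenchymal cells, was nearly undetected, at 0.0590 and 0.0405, or 4.99 and 4.16 reads on the shortest transcript. It is the gene next to Igfbp2 on chromosome 1, so these neighbours differed in level in both libraries. Igfbp1, the neighbour of Igfbp3 and a gene known mainly from liver, was listed at 0 in both libraries.

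The order of levels was the same at the top and differed below. In both libraries Igfbp7 came first and Igfbp6 second. In the null library Igfbp4, Igf2r, Igf2, Igf1r and Igf1 followed, and in heterozygous cells Igf2r, Igf1r, Igfbp4, Igf1 and Igfbp2. On the shortest transcript, the counting intervals of Igfbp4 (56.9 to 67.3) and Igf2r (51.6 to 65.4) overlapped in the null library, as did those of Igf2 (36.7 to 46.0) and Igf1r (32.8 to 39.0). So did those of Igf1 (2.61 to 4.83) and Igfbp2 (2.76 to 4.38) in heterozygous cells, and there the interval of Igf2 (0.00281 to 0.618) took in the levels of Igfbp3 and Igfbp5. Igf2 took place 5 of 10 in the null library and place 9 in the heterozygote library.

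The summed FPKM of the 6 binding proteins was 668 in null cells and 467 in heterozygous cells, a 1.43-fold difference. Igfbp7 held 62.1% of it in null cells and 64.8% in heterozygous cells, and Igfbp6 held 27.6% and 32.2%. The share of Igfbp4 was 9.27% and 2.13%. Ligand FPKM amounted to 9.32% of binding protein FPKM in null cells and to 0.800% in heterozygous cells, so that quotient differed 11.6-fold. Because both terms come from the same library, it does not depend on how the columns were scaled.

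**Figure D3:**
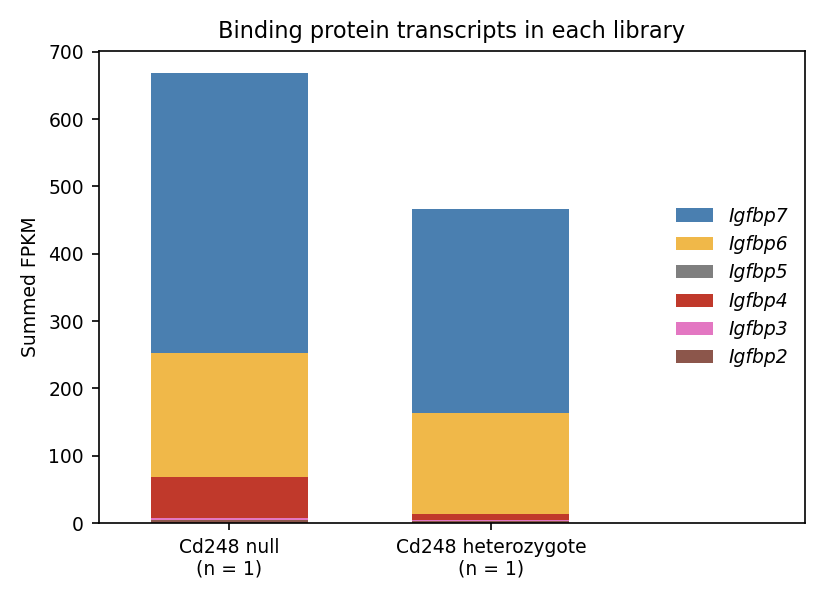
Stacked bars of the FPKM of Igfbp2 to Igfbp7 in each library (1 library per genotype, no error bars). The bars reach 668 and 467, Igfbp7 and Igfbp6 fill most of both, and Igfbp4 is the wider segment in the null library, at 61.9 against 9.94.

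Genes for the proteases that cut the binding proteins, and for inhibitors of those proteases, were mixed. Of 12 listed, 9 were compared, with 2 at least 2-fold higher (22.2%) and 1 lower (11.1%). The shares over all genes compared were 6.84% higher and 6.88% lower. The median log2 ratio of the list was 0.37. Mmp2, a gelatinase, was 3.33-fold higher in the null library (140 and 42.0), and Adam12, a membrane metalloprotease that cuts IGFBP3 and IGFBP5, 3.36-fold higher (23.1 and 6.89). Htra1, a secreted serine protease, was 5.71-fold lower (39.1 and 223). Pappa, the protease of IGFBP4, was below an FPKM of 1 in both libraries, at 0.0321 and 0.136, and Pappa2 stood at 0.215 and 0.0197. Of the stanniocalcins, which inhibit PAPP-A, Stc2 stood at 9.73 and 13.6 and Stc1 at 2.54 and 0.984. The most abundant of the list were Mmp14, which encodes a membrane collagenase (574 and 443), and the lysosomal protease gene Ctsd (184 and 161).

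Of the insulin-related and other family genes, 3 of 9 were compared and none passed the 2-fold mark, where 13.7% of all genes compared did. The insulin receptor gene Insr stood at 11.2 and 8.80, Esm1, which encodes endocan, at 5.95 and 3.52, and Tmem219, whose product is known as a receptor for IGFBP3, at 3.55 and 4.53. Ins1 and Ins2 were listed at 0 in both libraries.

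In the relay downstream of the receptor most genes lay within 2-fold. Of 30 adaptors and PI3K-Akt genes 28 were compared, with 0 at least 2-fold higher, 2 lower (7.14%, against 6.88% of all genes compared), 26 within 2-fold and a median of 0.13. Grb10, an imprinted adaptor that binds the activated IGF1 and insulin receptors and damps their signal, was 6.94-fold lower in the null library (29.8 and 207). It lies on chromosome 11. Pik3cb, a catalytic subunit of PI3K, was 2.48-fold lower (6.35 and 15.8). The receptor substrates Irs1 (1.52 and 2.01) and Irs2 (3.53 and 5.04) were low in both libraries. The most abundant of the list were Akt1 (526 and 559), Pik3r2 (157 and 151) and the translation repressor gene Eif4ebp1 (131 and 142).

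Genes known as targets of FoxO factors, which Akt holds out of the nucleus, went both ways. Of 14 compared, 2 were at least 2-fold higher (14.3%), 3 lower (21.4%) and 9 within 2-fold, with a median of 0.30. Among all genes compared, 6.84% were higher and 6.88% lower. Gadd45a, a stress gene (32.8 and 12.0), and Sesn3, a sestrin gene (23.1 and 8.51), were higher in the null library. Pdk4, a pyruvate dehydrogenase kinase gene (5.05 and 21.1), and Cited2, a transcriptional co-regulator gene (97.4 and 201), were lower, and Erbb3 was listed at 0 against 1.48. Txnip (37.3 and 32.6) and Cdkn1b (34.8 and 28.8) were among the most abundant and lay within the 2-fold mark.

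**Figure D4:**
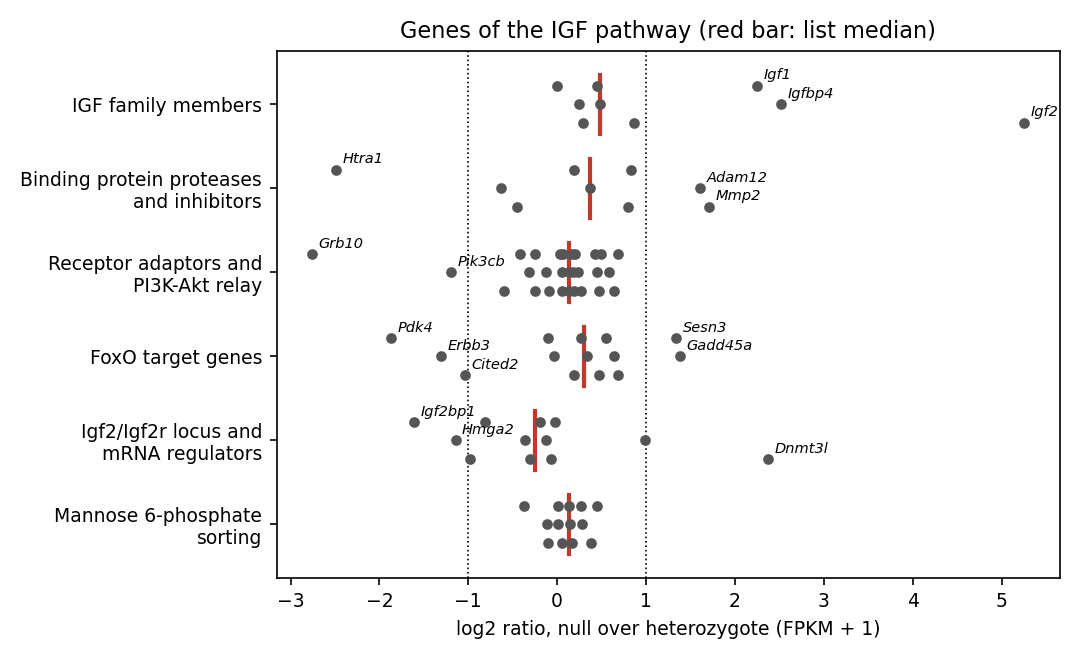
Log2 ratio of null to heterozygote FPKM (pseudocount 1) for the compared genes of 6 lists, with 1 point per gene, the list median as a red bar and dotted lines at a 2-fold difference. Medians lie between -0.25 and 0.48, and the genes past a dotted line are named.

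Regulators of the Igf2 and Igf2r loci and of Igf2 mRNA included 12 genes compared out of 16, with a median of -0.25. At least 2-fold differences were seen for 1 higher gene (8.33%) and 2 lower ones (16.7%). The shares over all genes compared were 6.84% and 6.88%. H19, the imprinted RNA gene that shares enhancers with Igf2 and is expressed from the opposite parental copy, was at 0.398 in null cells and listed at 0 in the other. Igf2os, a transcript antisense to Igf2, was at 0.396 and listed at 0, and whether the counting used strand is not given in the sources used here, so reads of antisense partners cannot be told apart. The same holds for Igf2r and its antisense partner Airn (2.23 and 2.99). Mrpl23, the nearest protein-coding gene on the other side of H19, stood at 37.5 and 48.3.

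The RNA-binding protein genes that act on Igf2 mRNA did not share a direction. Igf2bp1 was 3.29-fold lower in the null library (8.88 and 29.2), Igf2bp3 stood at 4.54 and 8.72, and Igf2bp2 at 67.1 and 33.3. The plain fold of Igf2bp2 was 2.02, and with the pseudocount its log2 ratio of 0.99 lay just under the 2-fold mark. Hmga2, a chromatin protein gene known in mouse to promote Igf2bp2 expression, was 2.22-fold lower (74.8 and 166). Plagl1, an imprinted zinc finger gene known to regulate other imprinted genes, stood at 5.16 and 11.2. It was 2.17-fold lower by plain FPKM, and its log2 ratio with the pseudocount was -0.99. Dnmt3l, a cofactor of DNA methylation in germ cells, was higher in null cells, at 7.23 and 0.590. Trim28, which guards imprints together with Zfp57, was the most abundant gene of the list (408 and 446), and Zfp57 stood at 91.3 and 96.2.

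Other imprinted genes differed too, in both directions. Of 24 listed, 16 were compared, with 2 at least 2-fold higher (12.5%) and 6 lower (37.5%). Of all genes compared, 6.84% were higher and 6.88% lower. The list median was -0.53, and 0.28 with a minimum FPKM of 5. Meg3 (14.1 and 3.09) and Rian (32.2 and 3.81), non-coding RNAs of one cluster, were higher in the null library. Grb10, Peg3 (listed at 0 and at 52.1), Usp29 (listed at 0 and at 3.29), Ndn (5.64 and 52.3), Dlk1 (0.251 and 11.9) and Mest (0.284 and 3.51) were lower. The most abundant within the 2-fold mark were Sgce (41.0 and 33.7) and Impact (38.6 and 22.1).

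The sorting route that IGF2R serves for lysosomal enzymes had 13 listed genes, all compared. None passed the 2-fold mark in either direction, where 13.7% of all genes compared did, and the median was 0.14. M6pr, the smaller mannose 6-phosphate receptor gene, stood at 52.2 and 68.1, and Gnptab, which encodes subunits of the enzyme that makes the tag, at 46.9 and 45.1. The most abundant were Snx1 (113 and 93.2), Vps35 (105 and 104) and Vps26a (79.0 and 70.3), which encode parts of the retromer system.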

How the data were processed

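The authors deposited 1 table of FPKM with 1 column for each of 2 libraries. Bowtie2 (2.2.3) and the build mm8 are named in the submitters' processing notes. The sources used here name no counting tool, annotation or denominator of FPKM. Division by a library total lets a few abundant transcripts move other values.

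IDs were matched to GENCODE M21, which gave symbols for 52489 of 52636. Where a symbol had several rows, that with the highest mean was used. Log2 ratios used a pseudocount of 1, which understates differences of low genes. Genes reaching 1 FPKM in either library were compared, and 2-fold differences were counted. Plain folds are given where both libraries reached 1. No test was run.

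Depth was estimated from the steps between low values of genes with 1 annotated transcript, where 98.6% (null) and 98.5% (heterozygote) of values under 10 reads were whole within 0.02. The totals were 19786204 and 23982272 reads, or 19.8 and 24.0 reads per kilobase at an FPKM of 1. Where a gene has several transcripts the authors' length was not determined, so reads are given for the shortest and the longest. Intervals are exact at 95% (Poisson for a level, Clopper-Pearson on the split of reads for a ratio). The depth estimate and the count of 2-fold differences were tested on simulated data.

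The members and gene lists were chosen with earlier results of these data known. All 10 members are named, and from each list every gene past 2-fold with the pseudocount and up to 3 of the most abundant, plus further list genes picked after their values were seen. No gene is named for a pattern like a member's, since 2 libraries give 1 ratio per gene. Python 3.11.15, pandas 2.3.3, numpy 2.4.6, scipy 1.17.1 and matplotlib 3.10.9 were used. Alternatives were other pseudocounts, filters and scalings, and centring by chromosome.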

Additional observations from a re-analysis of the deposited data

How the results depend on the processing

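The count of members at least 2-fold higher was 3 or 4 under 8 other settings of pseudocount, filter, scaling and chromosome centring, and that of members lower was 0 in each. Over these settings the log2 ratio ranged from 3.18 to 7.66 for Igf2, from 1.60 to 2.50 for Igf1 and from 2.16 to 2.79 for Igfbp4. Over all genes, 874 were higher and 879 lower as reported, and 1306 and 1090 with a pseudocount of 0.1. With a pseudocount of 5, 400 were higher and 369 lower, and 1 receptor relay gene was lower. With a minimum FPKM of 5, 622 genes were higher and 523 lower. With a pseudocount of 0.1, and also after equal-sum scaling of the columns, 2 regulators of the Igf2 and Igf2r loci were higher. The log2 ratio of summed binding protein FPKM was 0.52 as deposited and 0.60 after equal-sum scaling. Without Igfbp7, an alternative added after seeing the data, it was 0.63. The causes were not tested. No paired analysis was possible because each genotype had 1 library, and for the same reason no replicate could be left out. Depth limits the Igf2 value of the heterozygote library and both Igfbp5 values, which rest on few reads.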
